A study of Mus musculus with 5 samples.

Results

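The genes described here are 5 that encode secreted peptides, Pyy, Gal, Cck, Adcyap1 and Edn2, and 2 that encode neurofilament subunits, Nefl and Nefm. They were chosen by their readings on these same arrays, because they were far brighter in induced Leydig-like cells (iLC) than in Leydig cells or than in both Leydig cells and fibroblasts. Each had 1 probe, so they make up 7 of 26423 probes and 7 of 19084 measured genes. The study asked whether mouse fibroblasts can be driven toward Leydig cells, the testosterone-making cells of the testis, by a set of transcription factors. iLC (2 arrays) were mouse embryonic fibroblasts given Dmrt1, Gata4 and Nr5a1 by lentivirus, Leydig cells (2 arrays) came from testes of mice 56 days old, and MEF (1 array) were fibroblasts from the same stage of embryo, 13.5 days post coitus, given the mock vector. Exposure to virus lasted 12 hours, and the reprogramming medium that followed was supplemented with PDGFAA (10 ng/ml) and with IGF at 50 ng/ml. The labels leave unsaid if MEF received that medium, how long iLC were cultured, and whether the arrays of a group came from separate cultures or animals. All p-values below therefore measure only the spread between these arrays, which may be technical.

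Peptide hormones and neuropeptides are made as longer precursors, cut by proprotein convertases, stored in dense-core granules and released on demand to act on G protein-coupled receptors. Neurons, endocrine cells of the gut and the adrenal medulla are their best known sources. Neurofilaments are intermediate filaments that fill axons, built from light, medium and heavy subunits together with alpha-internexin or peripherin. Adult Leydig cells are known above all for steroid synthesis, and fibroblasts for matrix and for the intermediate filament protein vimentin.

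On the arrays as a whole, the median probe intensity was between 1111 and 1230, so the arrays were on close scales, but a reading under about 300 lies in the lowest part of every array (25th percentiles 254 to 327). Detection calls were not used here, so such a reading is not told apart from background. The probe for Nr5a1 read 1509 and 1158 in iLC, 68030 and 44721 in Leydig cells and 1265 in MEF. The Gata4 probe read 4127 and 3150 in iLC, 71888 and 50891 in Leydig cells and 6773 in MEF. The Dmrt1 probe read 333 and 427 in iLC, 549 and 519 in Leydig cells and 397 in MEF. None of the 3 delivered factors thus stood above the MEF array on both iLC arrays, and whether these probes lie in the part of the transcript that the vectors carry is not given, so they do not check the labels. Hsd3b1, a steroid-making enzyme of Leydig cells, read 27160 and 34513 in iLC, 218338 and 95740 in Leydig cells and 830 in MEF. Of 10 measured Leydig markers, 4 were called higher in Leydig cells than in MEF (Nr5a1, Gata4, Hsd3b1 and Cyp17a1). Others were not, among them Cyp11a1, the enzyme that opens steroid synthesis (603 and 907 in iLC, 510 and 451 in Leydig cells, 562 in MEF). Each of these readings lay under its array median. Whether the Cyp11a1 probe responds to its transcript was not tested, so its flat readings do not show equal expression. Star, the cholesterol carrier, read 56878 and 73892 in iLC, 1368 and 19703 in Leydig cells and 695 in MEF. Prm1, a gene of maturing sperm cells, read 144 and 168 in iLC, 6235 and 141591 in Leydig cells and 238 in MEF. In such bulk RNA, more cells of a kind and more RNA per cell cannot be told apart.

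Pyy encodes peptide YY, a gut hormone of the neuropeptide Y family that curbs appetite. Its probe read 53158 and 44677 in iLC, 340 and 319 in Leydig cells and 654 in MEF. Both iLC arrays were far above every other array, and the lower of them was 68.3 times the highest of the rest. On the log2(intensity + 16) scale, the iLC mean was 7.14 ± 0.31 above the Leydig mean and 6.18 ± 0.38 above MEF (SE of the limma fit, 2, 2 and 1 arrays). The 2 iLC arrays were close, with a ratio of 1.19 between them, and the gap to the other arrays was the widest of all 19084 genes, rank 1.

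Gal encodes galanin, a neuropeptide of the hypothalamus, sensory neurons and gut. It read 49852 and 32859 in iLC, 1424 and 2124 in Leydig cells and 1452 in MEF. It read above the array median on all 5 arrays, and the MEF value lay inside the range of the Leydig arrays. The iLC mean was 4.53 ± 0.38 above the Leydig mean and 4.79 ± 0.46 above MEF on the log2 scale.

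Cck encodes cholecystokinin, the gut hormone that makes the gallbladder contract and that is also an abundant brain neuropeptide. It read 40615 and 52137 in iLC, 196 and 372 in Leydig cells and 6346 in MEF. Here the 3 groups were ranked without overlap, iLC over MEF over Leydig cells, so the gene was also bright in mock-transduced fibroblasts. The iLC mean was 7.33 ± 0.40 above the Leydig mean and 2.86 ± 0.49 above MEF. The Leydig minus MEF difference was -4.47 ± 0.49.

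Adcyap1 encodes PACAP, a neuropeptide that raises cyclic AMP in its target cells. It read 5694 and 8768 in iLC, 444 and 445 in Leydig cells and 475 in MEF. The Leydig and MEF readings were nearly equal, and both iLC arrays were at least 12.0 times any of them. The iLC mean was 3.94 ± 0.35 above the Leydig mean and 3.85 ± 0.42 above MEF, the smallest iLC-Leydig difference among these genes.

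Edn2 encodes endothelin 2, a vessel-constricting peptide known from the gut. It read 19946 and 39259 in iLC, 345 and 335 in Leydig cells and 790 in MEF. The iLC arrays did not overlap with any other, although the second was 1.97 times the first. The iLC mean was 6.30 ± 0.41 above the Leydig mean and 5.12 ± 0.50 above MEF.

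Nefl encodes the light neurofilament subunit, on which the other subunits assemble. It read 7355 and 29258 in iLC, 189 and 194 in Leydig cells and 233 in MEF. The groups were far apart, but the iLC arrays differed 3.98-fold from each other. The iLC mean was 6.15 ± 0.64 above the Leydig mean and 5.88 ± 0.78 above MEF. All 3 Leydig and MEF readings lie where signal is not told apart from background, so these sizes are not exact folds of transcript; with readings raised to a floor of 200 they were 6.09 and 5.88.

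Nefm encodes the medium subunit. It read 20955 and 51053 in iLC, 116 and 150 in Leydig cells and 733 in MEF. As for Nefl, the second iLC array was the brighter, here 2.44 times the first. The iLC mean was 7.79 ± 0.48 above the Leydig mean and 5.45 ± 0.59 above MEF. The Leydig readings of Nefm lie in the same low range, and with the floor of 200 the Leydig difference was 7.24, just under the 7.31 of Cck under that floor.

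**Figure D1:**
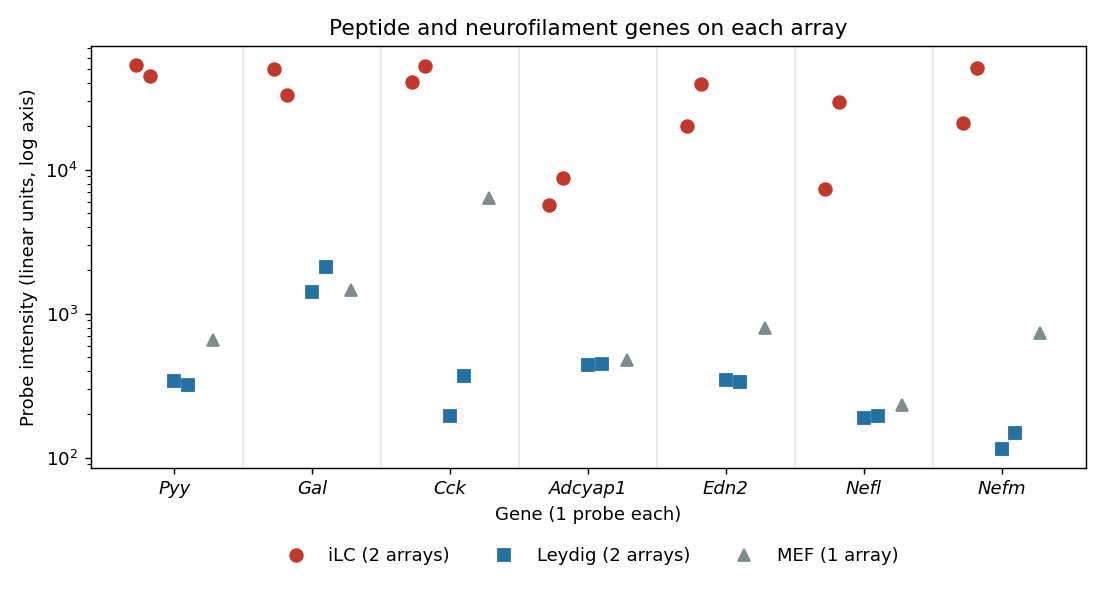
Probe intensity (linear units on a log axis) of each gene on the 2 iLC, 2 Leydig and 1 MEF arrays, 1 point per array. Both iLC points lie above all others for each gene; the MEF reading of Cck, 6346, stands furthest above its Leydig readings. Heights of different genes are not comparable, since each probe has its own response.

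**Figure D2:**
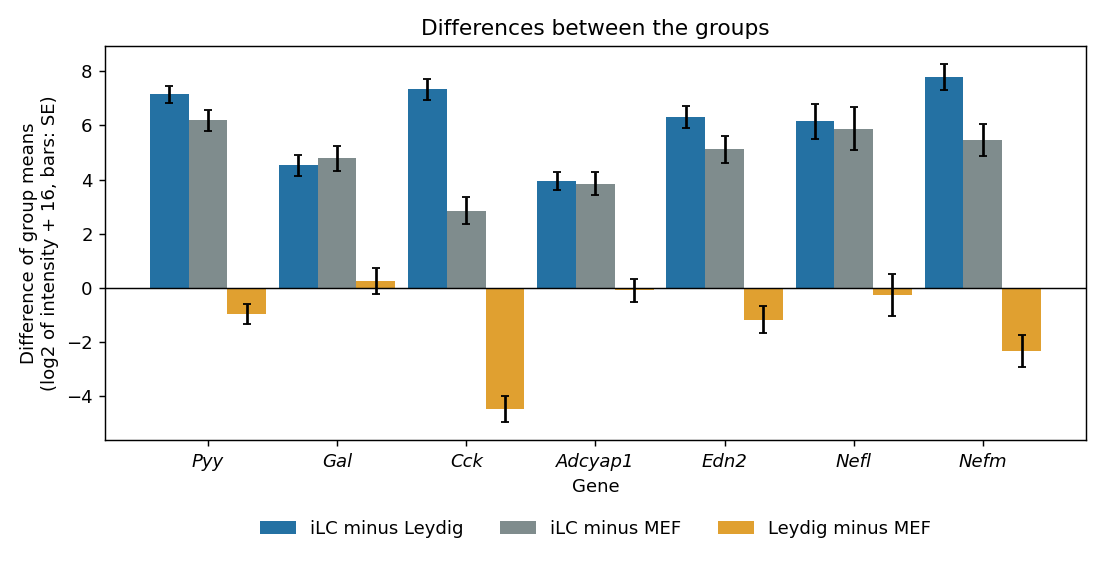
Differences of group means on the log2(intensity + 16) scale for iLC minus Leydig, iLC minus MEF and Leydig minus MEF, with bars of 1 SE from the limma fit over 5 arrays. iLC minus Leydig ranges from 3.94 (Adcyap1) to 7.79 (Nefm) and iLC minus MEF from 2.86 (Cck) to 6.18 (Pyy); with a floor of 200, Cck (7.31) is above Nefm (7.24) in the first.

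Since these genes were selected on the iLC contrasts, the differences from iLC are a description and carry no test. For background, limma called 1091 of 19084 genes (5.72%) up and 1079 (5.65%) down in iLC relative to Leydig cells at a Benjamini-Hochberg adjusted p under 0.05. Relative to MEF it called 53 genes (0.278%) up and 54 (0.283%) down in iLC. Between Leydig cells and MEF it called 637 (3.34%) higher and 757 (3.97%) lower in Leydig cells. A fit with an array left out has fewer residual degrees of freedom than the 2 of the full fit. A call lost in it need not rest on that array. With any single iLC or Leydig array left out, no gene was called between iLC and MEF. The median difference over all genes was -0.03, -0.11 and -0.10 in these comparisons. The rule for the 7 genes used these contrasts, so their own calls are not counted against this background. Leydig cells and MEF, whose levels also entered the choice, differed by -0.09 ± 0.42 for Adcyap1 and 0.26 ± 0.46 for Gal, where the sign turned under another scaling or with 1 array left out. For Nefl the difference was -0.26 ± 0.78, its sign turned too, and all 3 readings lay near background, so it says nothing of expression. The differences were larger for Pyy (-0.96 ± 0.38), Edn2 (-1.18 ± 0.50), Nefm (-2.34 ± 0.59) and Cck.

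The standing of the genes among all others was set by the ratio of the lowest iLC array to the highest other array, each plus 16. Pyy ranked 1, Nefl 4, Nefm 5, Edn2 7, Gal 11, Adcyap1 19 and Cck 50. The genes just ahead of Cck, with its ratio of 6.39, were Fam189a2 at 6.61 and Cd55 at 6.65. In all, 3362 genes (17.6%) had both iLC arrays above the other 3. Genes ranked among them included Dmbt1, a mucosal glycoprotein (12714 and 32837 in iLC, 171 and 166 in Leydig cells, 247 in MEF), and Il6, an inflammatory cytokine (30289 and 37346 in iLC, 145 and 118 in Leydig cells, 743 in MEF).

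**Figure D3:**
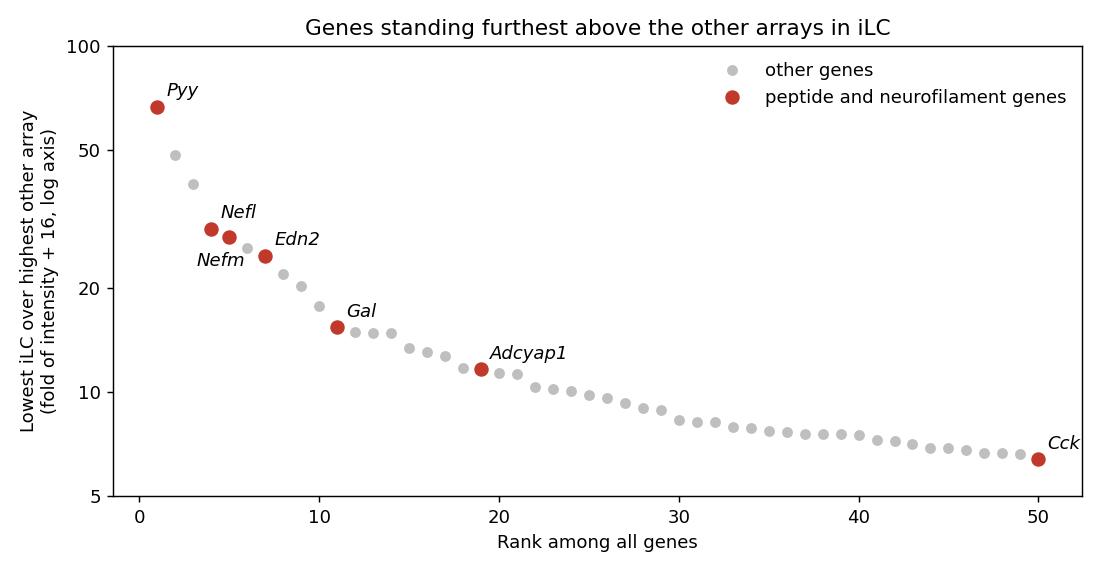
Ratio of the lowest iLC array to the highest Leydig or MEF array (fold of intensity + 16, log axis) against rank, for the 50 genes at least as far apart as Cck. The 7 peptide and neurofilament genes are marked; Pyy is at rank 1 and Cck at rank 50.

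The 2 iLC arrays disagreed more for some of these genes than for most. Among 14393 genes with a mean intensity of at least 500, 0.556% had as large a gap between the iLC arrays as Nefl, 2.98% as large as Nefm and 7.58% as large as Edn2. For these 3 genes the second array was the brighter. Adcyap1, Gal, Cck and Pyy had gaps that 26.0%, 27.6%, 49.1% and 61.8% of genes matched or exceeded, and for Gal and Pyy the first array was the brighter, by 1.52 and 1.19 times. The genes thus did not all favour the same iLC array. Over the 5 arrays, each log2 profile centred on its own mean, the nearest gene to Nefl was Dmbt1 (Euclidean distance 0.78), to Nefm it was Il6 (0.81), and to Pyy the potassium channel gene Kcnk10 (1.18). Gal was nearest to the chemokine gene Ccl17 (0.69), Adcyap1 to the corticotropin-releasing hormone receptor gene Crhr1 (0.46), Cck to Olr1 (0.71) and Edn2 to Dmbt1 (0.99). These distances run over 17154 genes and only 5 arrays, and Nefl and Edn2 were the closest pair of the 7 (1.05).

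Nefl and Nefm are neighbours on chromosome 14 in the RefSeq annotation of GRCm38.p6, which was used here for gene order only. Of the 11 other measured genes that lie next to these 7, 2 rose in iLC against Leydig cells, Dock5 next to Nefl (1.70 ± 0.35, limma adjusted p = 0.0299) and Nags next to Pyy (1.39 ± 0.30, adjusted p = 0.0355). Both calls were lost when any single array of the 4 was left out (adjusted p 0.0683 to 0.162). No neighbour passed between iLC and MEF. Over all genes, 5.72% rose in iLC against Leydig cells and 0.278% against MEF. Ppy, which encodes pancreatic polypeptide and lies beside Pyy, read 1647 and 2073 in iLC, 3000 and 2528 in Leydig cells and 3183 in MEF (iLC minus Leydig -0.57 ± 0.32, adjusted p = 0.319). Both iLC readings lay below the other 3, but the difference did not pass the test.

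Promoter sequence was read from RefSeq (GRCm38.p6) for Pyy, Gal, Cck, Adcyap1 and Edn2, each as the 250 bases upstream of the most upstream annotated start and the 50 bases after it. Pyy is shown as the gene with the widest gap, and Cck and Adcyap1 because they hold the motifs searched for in the upstream part. Capitals mark matches to the core of the cyclic AMP response element and to either of the GATA sites spelled out after the sequences, on either strand. Pyy lies at chr11:102107833-102108082 on the minus strand, Cck at chr9:121495695-121495944 on the minus strand and Adcyap1 at chr17:93198767-93199016 on the plus strand.
Pyy: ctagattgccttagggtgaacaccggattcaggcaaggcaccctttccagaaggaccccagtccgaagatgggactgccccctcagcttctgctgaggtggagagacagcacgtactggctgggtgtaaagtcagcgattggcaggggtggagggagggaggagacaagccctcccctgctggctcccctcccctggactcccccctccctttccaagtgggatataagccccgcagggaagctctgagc
Cck: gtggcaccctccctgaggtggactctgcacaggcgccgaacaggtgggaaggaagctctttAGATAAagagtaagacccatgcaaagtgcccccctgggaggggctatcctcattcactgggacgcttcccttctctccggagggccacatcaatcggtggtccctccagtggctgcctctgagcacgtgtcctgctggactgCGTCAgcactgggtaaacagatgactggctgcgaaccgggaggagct
Adcyap1: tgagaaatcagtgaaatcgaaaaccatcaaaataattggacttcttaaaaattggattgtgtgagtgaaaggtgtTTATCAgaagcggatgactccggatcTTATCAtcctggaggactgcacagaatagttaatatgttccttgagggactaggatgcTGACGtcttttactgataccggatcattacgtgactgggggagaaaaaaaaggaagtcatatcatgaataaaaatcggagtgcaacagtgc

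The core of the cyclic AMP response element, TGACG, stood in 3 of the 5 windows of 300 bases, 91 bases upstream of the Adcyap1 start, 47 upstream of the Cck start on the other strand and 20 after the Gal start. It stood in 20.8% of all 32851 windows of the table. The GATA form AGATAA stood in the Cck window, 189 bases upstream (11.2% of all windows). The other GATA form, TGATAA, stood in the Adcyap1 window on the other strand, 175 and 149 bases upstream (9.05% of all windows). The full cyclic AMP element, TGACGTCA, whose first bases are the core, was in none of the 5 and in 1.79% of all windows. The AP-1 form TGANTCA was in none of the 5 and in 7.81% of all windows. The half-site bound by Nr5a1, AAGGTCA, was in none of the 5 and in 4.72% of all windows. These matches describe the letters of the windows and nothing of binding.

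The other genes of the peptide and neural pathways came from 10 lists chosen with earlier results of these data known. Over all 19084 genes, 5.72% rose and 5.65% fell in iLC against Leydig cells, and 0.278% rose against MEF. The counts of each list are to be set beside these shares. A count of 1 in a list of 9 or 10 genes does not stand apart from them. Over the 183 distinct measured genes of these lists, 36 rose and 3 fell in iLC against Leydig cells, and 12 to 21 rose with 1 array left out. Raising all readings to a floor of 200 gave 2 rises, Nes and Hand2. Every other rise of these lists named below thus ended under that floor, those that held with an array left out included. Where no reading lay under 200, as for Mog and Ptprn, the floor left the difference itself unchanged. Only the test, refitted over all genes, differed, so such a loss does not place the gene near background. Of 47 measured precursors of hormones and neuropeptides, 7 rose and 0 fell in iLC against Leydig cells. They were Npy (neuropeptide Y), Nppc and Nppa (natriuretic peptides), Edn1 (endothelin 1), Tac1 (substance P), Calcb and Ucn2. Npy read 9751 and 6067 in iLC, 278 and 323 in Leydig cells and 4481 in MEF (iLC minus Leydig 4.61 ± 0.36, limma adjusted p = 0.00157). Edn1 read 1260 and 3437 in iLC, 417 and 492 in Leydig cells and 9319 in MEF, so iLC stood between the others. Penk, another precursor gene, was bright in iLC and in Leydig cells. It read 33568 and 33409 in iLC, 30812 and 15336 in Leydig cells and 3968 in MEF. It did not pass in either iLC comparison (iLC minus Leydig 0.62 ± 0.41, limma adjusted p = 0.398). The median of the list was 0.34 against Leydig cells and -0.12 against MEF, beside -0.03 and -0.11 over all genes. Against MEF, Nppc and Sct (secretin) rose: Nppc by 3.19 ± 0.42 (adjusted p = 0.0461) and Sct by 5.98 ± 0.51 (adjusted p = 0.0281). Sct, however, read 35994 and 19525 in iLC, 12572 and 8687 in Leydig cells and 406 in MEF, and so was bright on the Leydig arrays as well. Both MEF calls were lost on leaving out any single iLC or Leydig array. The Leydig arrays do not enter these differences, which stayed at 3.19 for Nppc and 5.98 for Sct without either of them. The loss there came with the smaller fit and not with a changed difference. Among the Leydig calls, those of Nppc and Npy held without any 1 of the 4 arrays, whereas those of Nppa and Edn1 were lost without the second iLC array or either Leydig array.

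Of 14 measured receptors for these peptides, 2 rose in iLC against Leydig cells and none passed against MEF. Vipr2, a receptor for PACAP and VIP, read 684 and 406 in iLC, 86.2 and 103 in Leydig cells and 194 in MEF (2.30 ± 0.37, adjusted p = 0.0131), and Ednrb, the endothelin B receptor, 1765 and 1766 in iLC, 581 and 456 in Leydig cells and 775 in MEF (1.75 ± 0.31, adjusted p = 0.0188). The Vipr2 call was lost without the first iLC array or either Leydig array, and the Ednrb call without any 1 of the 4. The PACAP receptor Adcyap1r1 read 3416 and 4708 in iLC, 4289 and 1447 in Leydig cells and 4771 in MEF, and Cckar, the gut receptor of cholecystokinin, 231 and 294 in iLC, 173 and 112 in Leydig cells and 221 in MEF. The other cholecystokinin receptor, Cckbr, read 1108 and 1236 in iLC, 980 and 758 in Leydig cells and 865 in MEF. The galanin receptors Galr1 and Galr2 read at most 207 on any iLC or Leydig array, whereas Galr3 read 966 and 1213 in iLC, 902 and 673 in Leydig cells and 990 in MEF. Of the receptors for peptide YY, Npy1r, Npy2r, Npy4r, Npy5r and Npy6r did not pass in either iLC comparison. Npy2r read 1745 and 4093 in iLC, 1551 and 1431 in Leydig cells and 1345 in MEF. Npy1r read 1367 and 1341 in iLC, 2381 and 1377 in Leydig cells and 1420 in MEF. Vipr1, at 324 and 1032 in iLC, 151 and 202 in Leydig cells and 219 in MEF, did not pass either.

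Of 25 measured genes for cutting and storing peptides, 5 rose and 0 fell in iLC against Leydig cells. The granule protein gene Vgf read 53826 and 43739 in iLC, 728 and 1508 in Leydig cells and 3839 in MEF (5.51 ± 0.43, adjusted p = 0.00152). Both iLC arrays were over the rest, as were those of the convertase gene Pcsk6, while Ptprn, a granule membrane protein, read 16369 in MEF beside 21613 and 27584 in iLC. The Vgf call held without any 1 of the 4 arrays. Those of Pcsk5 and Qpct, which forms the blocked amino end of some peptides, were lost without each of them, and Pcsk5 had probes that disagreed. The Pcsk6 call was lost without either iLC array (adjusted p 0.0708 and 0.0723) and the Ptprn call without the second Leydig array (0.0542). Against MEF, Vgf was 3.65 ± 0.52 higher with an adjusted p of 0.0546. Pcsk2 was not measured.

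Of 10 measured other intermediate filament genes, Nes (nestin, 5.97 ± 0.30, adjusted p = 0.000874) and Des (desmin, 3.01 ± 0.36, adjusted p = 0.00486) rose in iLC against Leydig cells, with both calls held without any 1 of the 4 arrays. Both were also bright in MEF. Nes read 21304 and 20852 in iLC, 304 and 336 in Leydig cells and 32227 in MEF. The usual filament partners of Nefl and Nefm did not pass the test in either iLC comparison. Nefh, the heavy subunit, read 1444 and 1915 in iLC, 957 and 1040 in Leydig cells and 905 in MEF (iLC minus Leydig 0.73 ± 0.32, adjusted p = 0.212). Prph, peripherin, read 712 and 676 in iLC, 999 and 876 in Leydig cells and 373 in MEF (-0.42 ± 0.30, adjusted p = 0.433). Ina was not measured.

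Among 24 neuronal markers, 7 rose and 2 fell in iLC against Leydig cells, and none passed against MEF. Gap43, a growth cone protein, read 23645 and 12539 in iLC, 186 and 214 in Leydig cells and 11686 in MEF (6.32 ± 0.40, adjusted p = 0.00109). Snap25, a protein of vesicle fusion, read 25072 and 8223 in iLC, 518 and 1030 in Leydig cells and 929 in MEF (4.27 ± 0.61, adjusted p = 0.00896). It was one of 3 genes of all these lists, with Vgf and Nppc, whose gap was at least that of Cck. Stmn2, a tubulin-binding protein of growing axons, rose by 2.29 ± 0.40 (adjusted p = 0.0168) and the adhesion molecule gene Ncam1 by 2.20 ± 0.36 (adjusted p = 0.0141), though Ncam1 was brighter still in MEF (29693 and 18986 in iLC, 5717 and 4666 in Leydig cells, 58716 in MEF). The Stmn2 call was lost without either iLC array or the second Leydig array, and the Ncam1 call without the first iLC array or either Leydig array. The dendrite protein gene Map2 (-2.74 ± 0.36, adjusted p = 0.00645) and the synaptotagmin gene Syt1 (-1.91 ± 0.42, adjusted p = 0.0374) fell. Gap43 held without any 1 of the 4 arrays, but Snap25 and Map2 were lost without either Leydig array, and Syt1 without either iLC array or the second Leydig array.

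Of 20 measured transcription factors of neural and autonomic fate, Hand2 rose by 4.59 ± 0.30 and Gata2 by 2.32 ± 0.32 in iLC against Leydig cells (limma adjusted p = 0.00109 and 0.00748). Hand2 was also bright in MEF (3230 and 3142 in iLC, 118 and 115 in Leydig cells, 2401 in MEF), and the Gata2 call was lost without the second iLC or second Leydig array. Of 9 catecholamine genes 1 rose, Ddc (1.97 ± 0.41, adjusted p = 0.0317), a call lost without the second iLC array or either Leydig array. Of 10 glial markers 1 rose, the myelin gene Mog (2.41 ± 0.32, adjusted p = 0.00701), at 83511 and 108122 in iLC, 19194 and 16543 in Leydig cells and 54885 in MEF, a call lost without the second Leydig array. None of 16 enteroendocrine and islet markers passed against Leydig cells (the 2 largest differences were 1.34 ± 0.42 for Sct, adjusted p = 0.0979, and 1.10 ± 0.44 for Tph1, adjusted p = 0.177), and 1, Sct, passed against MEF. Of 20 cyclic AMP and immediate early genes, 9 rose and 1 fell against Leydig cells, among them the phosphodiesterase genes Pde4b (5.92 ± 0.50, adjusted p = 0.00186) and Pde4d (3.56 ± 0.33, adjusted p = 0.00223). The stress-response factor gene Atf3 rose by 2.92 ± 0.42 (adjusted p = 0.00918) and Pde10a by 2.65 ± 0.34 (adjusted p = 0.00626), while Egr1 fell (-2.05 ± 0.31, adjusted p = 0.0104). Pde4b and Pde4d held without any 1 of the 4 arrays, Atf3 was lost without either Leydig array, Pde10a without the second Leydig array, and Egr1 without each of the 4. The median of the list was 1.48 against Leydig cells and 0.43 against MEF, and none passed against MEF.

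**Figure D4:**
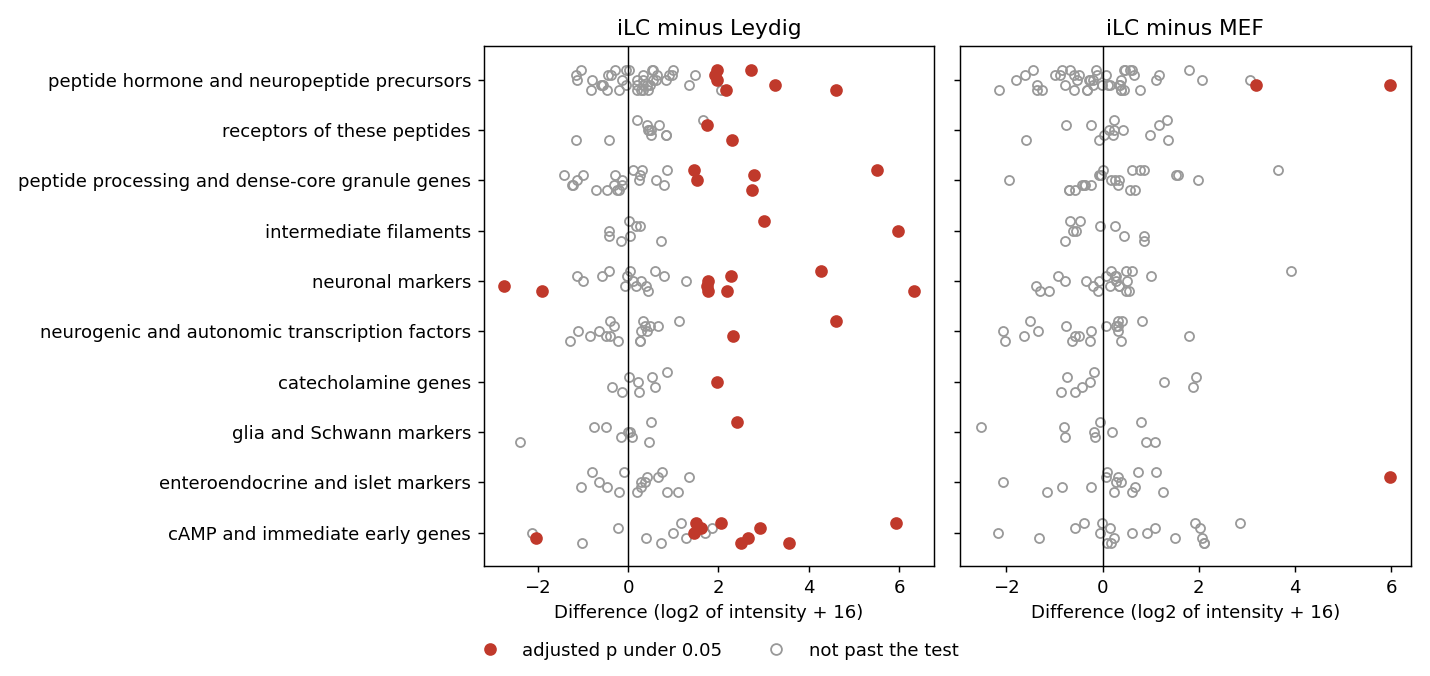
Difference of each measured gene on the log2(intensity + 16) scale, by list, for iLC minus Leydig (left) and iLC minus MEF (right); filled points had a limma adjusted p under 0.05. Over 183 distinct genes, 36 were called higher and 3 lower against Leydig cells (5.72% and 5.65% over all genes). The panel against MEF has filled points for Nppc and for Sct, which is in both lists.

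Markers of other cell types moved with these comparisons, and their part in the results was not tested. Over all genes, 5.72% rose and 5.65% fell in iLC against Leydig cells. Of 11 fibroblast markers, 4 rose (Fn1, Lox, Postn and Thy1) and 1 fell (Pdgfra) in iLC against Leydig cells. The summed intensity of the list was 811484 and 644346 in iLC, 640729 and 371011 in Leydig cells and 1177162 in MEF. Dcn gave 317284 and 244914 of the Leydig sums and Pdgfra 180686 and 92654, so the sum follows a few bright probes. Fn1 read 169821 and 104543 in iLC, 1039 and 673 in Leydig cells and 218059 in MEF. Of 12 Sertoli and germ cell markers, 4 fell against Leydig cells, with sums of 60499 and 97029 in iLC, 357461 and 675368 in Leydig cells and 33812 in MEF. Clu alone gave 332720 and 369002 of the Leydig sums, and Prm1 a further 141591 on the second Leydig array, so the sum follows a few bright probes. Of 10 Leydig markers 4 fell against Leydig cells and 1, Hsd3b1, rose against MEF. The list summed to 110526 and 190469 in iLC, 406534 and 680421 in Leydig cells and 15785 in MEF. The iLC and Leydig sums also follow a few bright probes, some far apart between arrays of a group. Ptgds read 12887 and 58864 in iLC, 2214 and 235608 in Leydig cells and 408 in MEF. Macrophage markers summed to 26455 and 52899 in iLC, 18826 and 22730 in Leydig cells and 85783 in MEF, and of 9 the receptor gene Csf1r rose against Leydig cells, a call lost without the second iLC array or either Leydig array (adjusted p 0.0584 to 0.0596). Of 7 endothelial markers 1, Cdh5, fell against Leydig cells, and they summed to 7533 and 8228 in iLC, 15593 and 12204 in Leydig cells and 7925 in MEF. Of these 49 markers, 0 read at or below 0 on any array.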

How the data were processed

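Each array carried amplified RNA of 1 sample in a single dye, Cy5, per the labels' protocols. The authors deposited linear probe intensities, already processed. Their background and scale treatment is not stated in the labels. Precision is limited by the number of arrays, 2, 2 and 1. Probes were named through the platform annotation (21876 of 26423 had 1 symbol, 0 several, 4547 none), and for the 2424 genes with several probes the one with the highest mean log2 value was kept. Values below 0 (504) were set to 0 and log2(value + 16) taken, which understates differences of dim genes. limma 3.58.1 in R 4.3.3 (lmFit, eBayes, two-sided, 2 residual and 4.21 prior degrees of freedom) was fitted to all 5 arrays with 1 mean per group; the MEF array was assumed to vary like the pairs, whose SD was 0.459 (iLC) and 0.548 (Leydig) on the log2 scale. P-values were adjusted by Benjamini-Hochberg over 19084 genes, threshold 0.05. Replicate numbers were not used to pair arrays in the main fit. Across genes, deviations from the group mean of the first iLC and the first Leydig array correlated at 0.0557. Such a comparison does not test pairing by number. With a replicate block, 1482 genes were called higher and 1958 lower in iLC than in Leydig cells, beside 1091 and 1079 without it. The fit was tested on simulated data.

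The 7 genes and all 15 gene lists were chosen with earlier results of these data known. A Leydig-MEF test of the 7 genes had been planned and is given without p, because both levels entered their choice. From each peptide or neural list the text was to name every called gene where at most 6 were called. Where more were called it was to name the 4 largest each way, and where none was called the 2 largest differences. From other cell types it was to name up to 3 by iLC mean. The text gives these in part only. Genes named outside this rule were the delivered factors, Fam189a2, Cd55 and the genes ranked among the 7. Further ones were Calcb, Tac1, Ucn2, Prm1, Cyp11a1, Cyp17a1, Lox, Postn and Pdgfra. All were chosen after their values were seen, as were the chromosome neighbours. Alternatives were other pseudocounts, scalings, filters, probe averaging, left-out arrays and a replicate block. Figures used Python 3.11.15 and matplotlib 3.10.9.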

Additional observations from a re-analysis of the deposited data

How the results depend on the processing

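Of 266 alternative values for the 7 genes, 264 moved by less than the spread between replicates and 2 moved by more. This tally is no test of stability. By its definition, leaving out an array of a pair cannot move a difference by more than that spread. Averaging probes, leaving out dim genes and the replicate block leave these differences unchanged. No iLC difference changed sign, but 4 Leydig minus MEF values did. The 2 that moved were those of Pyy, whose iLC minus Leydig difference was 6.96 with 64 added before the log and whose iLC minus MEF difference was 6.38 with low ends aligned. The widest ranges came from leaving out an iLC array: the iLC minus Leydig difference of Nefl was 5.15 without the second and 7.14 without the first. The Leydig minus MEF sign of Adcyap1, Gal and Nefl turned (to 0.08 and 0.11 with low ends aligned for Adcyap1 and Nefl, and to -0.03 without the second Leydig array for Gal). A floor of 200 intensity units left Nefm at 7.24 and Cck at 7.31 above Leydig cells. The 50 genes at least as far apart as Cck were 48 to 58 under 8 alternatives.

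Counts depended on the setting. A fit with an array left out has fewer residual degrees of freedom, also in comparisons that the array does not enter. Beyond that, the cause was not tested. Higher in iLC than in Leydig cells were 1091 genes, 200 with the floor and 334 to 556 with 1 array left out; lower were 1079, 181 with the floor, 1958 with the replicate block and 362 to 763 with 1 array left out. Of the 10 peptide and neural lists, 36 were higher, 2 with the floor and 12 to 21 with 1 array left out; 3 were lower, 5 with 64 added, 6 with arrays centred on the median, 5 after quantile normalization, 5 without dim genes, 1 with the floor, 7 with the replicate block and 0 to 2 with 1 array left out. Higher in iLC than in MEF were 53, 7 with 1 added, 124 with 64 added, 156 centred, 163 after quantile normalization, 6 with low ends aligned, 107 without dim genes, 0 with the floor and 0 without any 1 of the 4 paired arrays; lower were 54, and under the same settings 2, 166, 258, 201, 0, 123, 0 and 0. Higher in Leydig cells than in MEF were 637, 64 with the floor and 79 to 429 with 1 array left out; lower were 757, 95 with the floor and 74 to 535. Of the other named genes' values 2724 were on the same side of the threshold, 216 lost a call, 31 gained one and 1 reversed. That was Pcsk5 in iLC minus Leydig at -0.51 with all its probes averaged. A change of sign counted as reversed only where the main value had been called. Changes of sign of uncalled values were not counted apart. At an unadjusted p under 0.05 the limma fit had 1060 higher and 1945 lower genes against MEF. The 2 iLC and 2 Leydig arrays, and the single MEF array, set the precision of every value, and readings under about 300 have no detection call.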
